A study of Mus musculus with 7 samples.

Results

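Expression of 9 cell cycle genes was followed through 7 RNA sequencing libraries of mouse fetal liver at stage E12.5. They were the D-type cyclins Ccnd1, Ccnd2 and Ccnd3, the E-type cyclins Ccne1 and Ccne2, the A-type cyclin Ccna2, and the inhibitors of cyclin-dependent kinases (CDKs) Cdkn1b, Cdkn2c and Cdkn2d. The genes were chosen by name, as members of cell cycle entry and exit, and all 9 were found among the 39017 genes of the count files and passed the filter on low counts. The study compared livers that lose Taf10, a subunit of the general transcription factor TFIID and of the coactivator SAGA, with heterozygous and control livers. All embryos were C57BL/6. The 2 TAF10KO embryos were titled lox/lox with EpoCre, whereas the series text gives lox over KO for that genotype. EpoCre is expressed from the erythropoietin receptor gene, so recombination was directed at erythroid cells and the other cells of the liver keep the alleles they were born with. Of the 3 TAF10HET embryos, which all carried EpoCre, replicate 1 was lox/wt, and both others were wt/ko. The 2 WT embryos were lox/lox and Cre-negative, so TAF10KO and WT differed in EpoCre as well as in Taf10 deletion. Total RNA came from suspended liver cells. The titles also carry 1 of 2 date codes, whose meaning the labels do not state. Replicate 1 of each genotype had the first code, and the other 4 libraries (WT replicate 2, TAF10KO replicate 2, TAF10HET replicates 2 and 3) had the second. In TAF10HET the date code, the allele type and the sex of the embryo (judged by the level of Xist) cannot be told apart.

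D-type cyclins are made in response to growth signals and activate CDK4 and CDK6, which begin to inactivate the retinoblastoma protein and so release E2F transcription factors. E2F factors then drive the genes of the E-type and A-type cyclins, which activate CDK2 at the start of S phase and during it. Cdkn2c (p18) and Cdkn2d (p19) encode INK4 inhibitors that bind CDK4 and CDK6, and Cdkn1b (p27) encodes a CIP/KIP inhibitor that acts mainly on CDK2 complexes. In fetal liver most cells are erythroblasts, which divide rapidly as they mature and leave the cycle before they lose their nuclei. Cyclin D3 and p18, p19 and p27 are known for their part in setting the number of those divisions.

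On the mm10 (GRCm38) build, with GENCODE M21 gene models, Ccnd1 (ENSMUSG00000070348) spans chromosome 7, 144929931 to 144939925, on the minus strand. Ccnd2 (ENSMUSG00000000184) lies on chromosome 6, 127125162 to 127152193, minus strand, and Ccnd3 (ENSMUSG00000034165) on chromosome 17, 47505051 to 47599691, plus strand. Ccne1 (ENSMUSG00000002068) lies on chromosome 7, 38097984 to 38107534, minus strand, and Ccne2 (ENSMUSG00000028212) on chromosome 4, 11191351 to 11204779, plus strand. Ccna2 (ENSMUSG00000027715) lies on chromosome 3, 36564865 to 36572150, minus strand. Among the inhibitors, Cdkn1b (ENSMUSG00000003031) lies on chromosome 6, 134920401 to 134925513, plus strand. Cdkn2c (ENSMUSG00000028551) lies on chromosome 4, 109660876 to 109667189, and Cdkn2d (ENSMUSG00000096472) on chromosome 9, 21288410 to 21291407, both on the minus strand. Exons of 5 of the 9 genes overlap a gene on the opposite strand: Ccnd1 with LTO1, Ccnd2 with 9330179D12Rik, Ccnd3 with Bysl, Ccne2 with Ints8 and Ccna2 with Exosc9. The strand setting of the counting is not given in the sources used here, so reads from such a pair may not have been told apart where the exons overlap, and those 5 genes are the less certain ones. Ccne1 and the 3 inhibitors overlap no other gene of the files.

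RefSeq promoters were matched for 5 of the 9 genes by symbol (Ccnd3, Ccne1, Cdkn1b, Cdkn2c and Cdkn2d; not Ccnd1, Ccnd2, Ccne2 or Ccna2). The 250 bases before the start are shown (RefSeq, GRCm38.p6, 5′ to 3′ on the gene's strand) for Ccne1, Cdkn2c and Cdkn2d, whose levels were low together in both TAF10KO libraries, and for Cdkn1b, whose level was not. Capitals mark the letters CCAAT and the CACC box (CCNCNCCCN, a pattern of erythroid KLF factors that also takes in GC boxes), found on either strand, with overlapping matches run together. They are chr7:38107491-38107740 (minus strand) for Ccne1, chr4:109666757-109667006 (minus strand) for the first of the pair of Cdkn2c starts, chr9:21291210-21291459 (minus strand) for Cdkn2d and chr6:134920151-134920400 (plus strand) for Cdkn1b.
Ccne1: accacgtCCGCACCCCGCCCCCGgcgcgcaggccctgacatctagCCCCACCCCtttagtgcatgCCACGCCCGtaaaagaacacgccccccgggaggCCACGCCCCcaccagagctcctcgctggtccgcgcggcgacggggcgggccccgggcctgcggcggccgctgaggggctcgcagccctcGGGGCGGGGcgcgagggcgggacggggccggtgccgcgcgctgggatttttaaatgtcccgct
Cdkn2c: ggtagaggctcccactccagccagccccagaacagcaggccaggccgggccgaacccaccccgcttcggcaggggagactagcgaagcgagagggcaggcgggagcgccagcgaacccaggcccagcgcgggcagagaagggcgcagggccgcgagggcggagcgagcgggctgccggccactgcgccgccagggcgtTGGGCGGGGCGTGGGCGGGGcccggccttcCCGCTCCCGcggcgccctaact
Cdkn2d: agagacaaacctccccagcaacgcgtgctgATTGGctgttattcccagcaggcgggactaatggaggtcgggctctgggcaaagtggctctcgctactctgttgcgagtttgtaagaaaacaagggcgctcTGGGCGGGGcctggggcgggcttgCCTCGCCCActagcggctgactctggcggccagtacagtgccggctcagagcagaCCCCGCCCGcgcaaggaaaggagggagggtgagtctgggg
Cdkn1b: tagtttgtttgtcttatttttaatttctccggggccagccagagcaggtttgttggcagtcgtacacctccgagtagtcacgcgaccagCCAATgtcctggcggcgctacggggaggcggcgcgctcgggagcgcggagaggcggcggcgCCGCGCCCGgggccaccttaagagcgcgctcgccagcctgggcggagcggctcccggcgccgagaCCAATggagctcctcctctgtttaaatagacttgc
The Ccne1 window held 7 CACC box matches and no CCAAT, and 76% of its bases were G or C. The Cdkn2c window held 4 CACC box matches, no CCAAT and 77.2% G or C, while the window of the second Cdkn2c start held neither and had 42.8%. The Cdkn2d window held 3 CACC box matches, 1 CCAAT (read as ATTGG, 220 bases before the start) and 63.6% G or C. The Cdkn1b window held 1 CACC box match, 100 bases before the start, 2 CCAAT, 161 and 35 bases before it, and 64.4% G or C. The starts of Ccnd3 held 2 and 1 CACC box matches, and the second also 1 CCAAT. The letters searched for E2F sites (TTTCCCGC, TTTGGCGC, TTTCGCGC, TTTGCCGC), the E-box (CACGTG), the GATA site (AGATAA and, as its other form, TGATAA), the CHR element (TTTGAA) and the TATA box (TATAAA) were in none of the 7 windows of these 5 genes. Among 32851 promoter windows of the same length, 45.8% held a CACC box match, 33.8% CCAAT, 16.6% the GATA letters, 16% the CHR letters, 12.4% TATAAA, 6.02% CACGTG and 1.86% the E2F letters. The windows shown were chosen by levels in these same data. The background counts windows with any match, so the numbers of matches per window have nothing to be set against. These letter matches are a description of the windows and not binding sites.

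The libraries held 18008391 to 43401474 counts assigned to genes, which makes counting error small beside the spread between livers for genes at the levels given here. The largest axis of variation between libraries (63.2% of the variance, principal component analysis) ran between the date codes. Each genotype comparison below was therefore fitted with group and date code together in edgeR, on 15800 genes, and "rose" and "fell" are used only for an adjusted p under 0.05 over all of those genes. For Taf10 the levels in CPM (counts scaled with TMM factors to a common total) were 37.8 and 43.8 in the TAF10KO libraries and 63 to 96.5 in the other 5 (log2 difference from WT -1.04, edgeR adjusted p = 0.0542). Reads from undeleted exons and from Cre-free cells are counted too, so these levels do not measure the deletion. Summed over fixed marker lists, erythroid markers came to 24320 to 50860 CPM and hepatocyte markers to 12390 to 19810 CPM, as a fetal liver would show. Of the macrophage markers, Cd163 was near 0 in every library (at most 0.255 CPM).

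Per kilobase of exon, Ccna2 had the highest level of the 9 genes, with a mean of 107 ± 18.7 CPM per kilobase over the 7 libraries (SD). Next were Ccne1 (58.4 ± 12), Ccnd3 (50.8 ± 9.88), Cdkn2d (42.7 ± 11.1) and Ccne2 (30.8 ± 7.88). Ccnd1 (20.2 ± 4.47), Cdkn1b (16.4 ± 2.8), Cdkn2c (12.1 ± 3.62) and Ccnd2 (11.6 ± 2.35) were lowest on that scale. Neighbours in this order that did not differ beyond the larger SD were Ccne1 and Ccnd3, Ccnd3 and Cdkn2d, Ccnd1 and Cdkn1b, and Cdkn2c and Ccnd2. Within single libraries Ccne1 was still above Ccnd3 in 7 of 7, Ccnd3 above Cdkn2d in 6 of 7 and Ccnd1 above Cdkn1b in 5 of 7. Cdkn2c was above Ccnd2 in 3 of 7. On this scale Ccnd3 was the highest of the D-type cyclins and Cdkn2d the highest of the 3 inhibitors, whereas without division by length Cdkn1b had a higher mean (74.9 CPM) than Cdkn2d (67.2 CPM). Unannotated differences in transcript ends would change these lengths and were not tested.

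**Figure D1:**
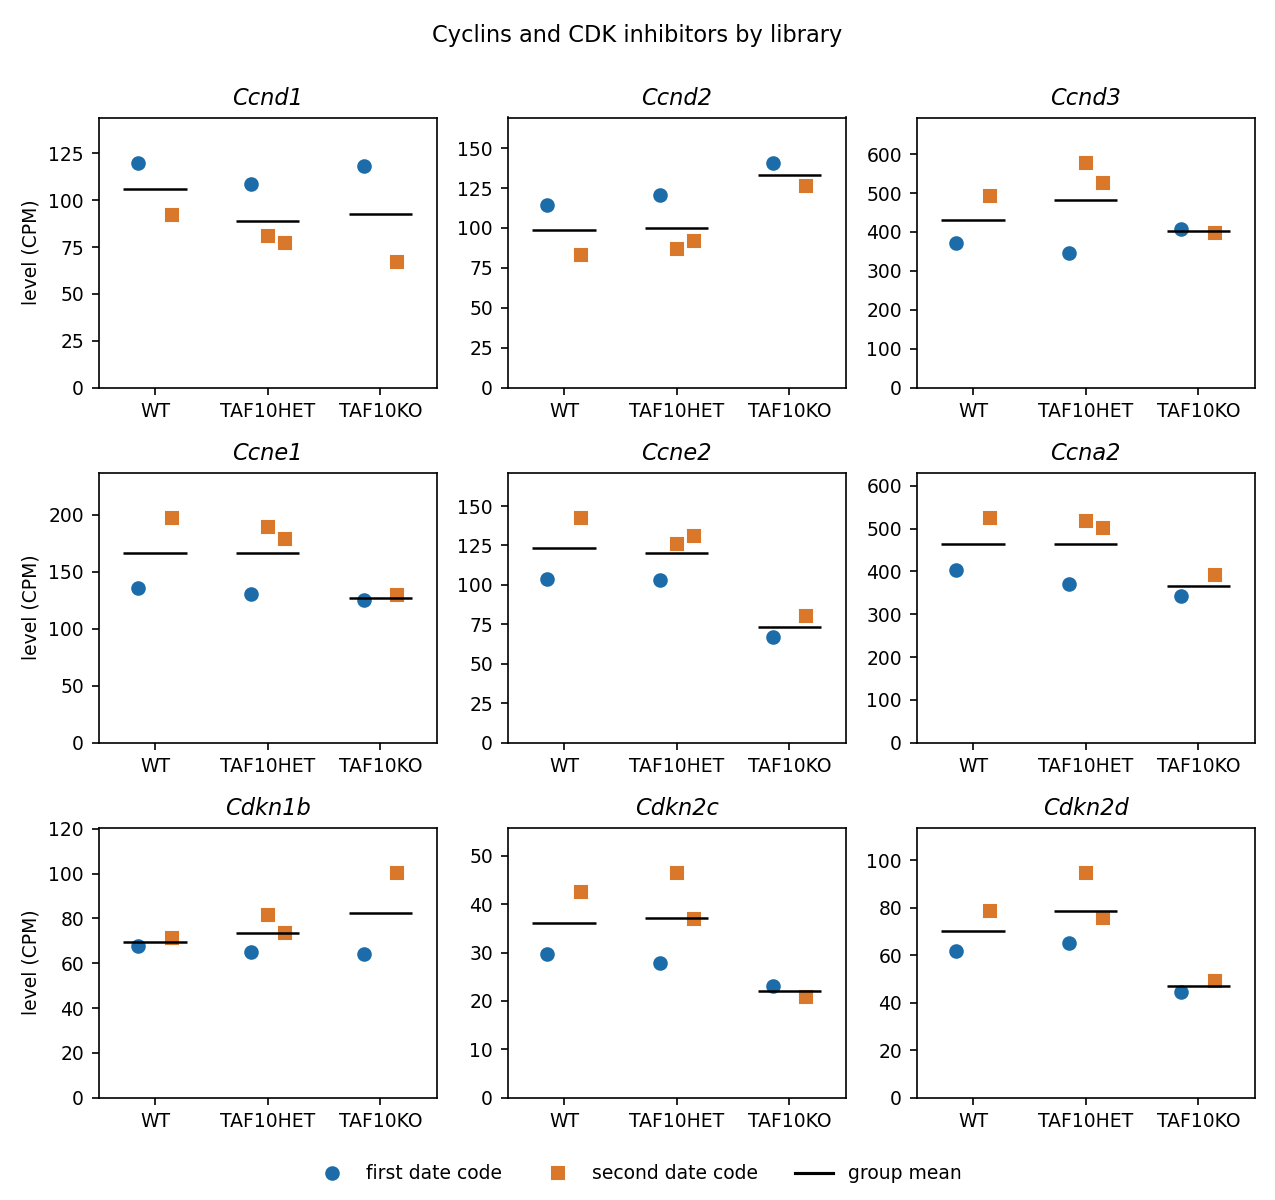
Level of each of the 9 genes (y axis, CPM with TMM factors, starting at 0) in every library, by genotype (x axis), with blue circles for the first date code, orange squares for the second and a black line at the group mean. In Ccne2, Ccne1, Cdkn2c and Cdkn2d both TAF10KO points lie below the other 5, and in Ccnd2 both lie above.

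Against WT, 1 of the 9 genes passed the test in TAF10KO: Ccne2 fell, and none rose. Over all 15800 genes tested, 0.608% were called in that comparison, 0.481% higher and 0.127% lower. At an unadjusted p under 0.05, 5 of the 9 genes were lower and 1 was higher. The share of all genes at that unadjusted level is not given here for this fit. DESeq2 with the same terms called 4 lower (Ccne2, Ccna2, Cdkn2c and Cdkn2d) and 1 higher (Ccnd2). Over all genes it called 589, in place of 96 with edgeR. The median difference of the 9 genes was -0.33 on the log2 scale, beside 0.03 over all genes tested. It was -0.12 within the first date code and -0.45 within the second. Without a term for date code, edgeR called 0 of the 9 genes and 0 genes in all, with 3 of the 9 and 729 genes (4.61%) at an unadjusted p under 0.05, and DESeq2 called 0 of the 9. Of the 9 genes edgeR called 4 without TAF10HET replicate 1 and 0 without TAF10HET replicate 2 or 3. The counts over all genes in those fits are not given here. The call of Ccne2 also ended without either WT library. For every gene but Ccne2, the lowest and highest differences came without TAF10KO replicate 1 and without TAF10KO replicate 2. In that order they were -0.60 and -0.17 for Ccne1, -1.04 and -0.37 for Cdkn2c, and 0.60 and 0.28 for Ccnd2. Both TAF10KO libraries lay below all 5 others for 4 of the 9 genes (Ccne1, Ccne2, Cdkn2c and Cdkn2d), which held for 7.18% of all genes, and above all 5 others for Ccnd2, which held for 7.48%. The direction of the difference from WT was the same on both date codes for 7 of the 9 genes, beside 64.7% of all genes. Judged by Xist, the males were TAF10KO replicate 2 and TAF10HET replicate 1, so sex differed within the TAF10KO pair. With sex as a further term edgeR called 2725 genes in all, in place of 96, and this fit has less left to measure the spread by. Of the 9 genes it called 5: Ccne2 (-0.72, adjusted p = 0.000103), Ccnd2 (0.39, 0.00357), Ccna2 (-0.27, 0.00793), Cdkn2d (-0.51, 0.0271) and Cdkn2c (-0.51, 0.0395). With 2 livers a group, and no statement of litters, p-values measure the spread between these libraries.

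Erythroid marker levels moved with these differences. Their sum was 24320 and 34570 CPM in TAF10KO replicates 1 and 2, against 30910 and 46020 in WT and 37640 to 50860 in TAF10HET. It was lowest in TAF10KO on either date code. A globin gene, 1 of the 10 markers, rose in TAF10HET against WT, and its level adds to the TAF10HET sums. Of 10 erythroid markers, 9 had a negative difference from WT (median -0.33) and 1 fell, the transferrin receptor gene Tfrc (-0.84, edgeR adjusted p = 0.0438). Neutrophil precursor markers summed to 210.1 and 320 CPM in TAF10KO, against 136 and 193 in WT, with a positive difference from WT in 6 of 6. EdgeR called 0 of these, with 5 higher at an unadjusted p under 0.05 and 2 higher with DESeq2. For this and the other marker lists, the share of all genes at the unadjusted level is not given here. Macrophage markers summed to 123 CPM in TAF10KO beside 155 in both other livers of the first date code, and to 82.5 beside 109.6 to 142 on the second. Of 7 tested, 6 had a negative difference from WT, with 0 called by edgeR, 4 lower at an unadjusted p under 0.05 and 1 lower with DESeq2, and 1 fell from TAF10HET, C1qa (-0.75, edgeR adjusted p = 0.0353). Hepatocyte markers had a negative difference from WT in 8 of 8 (median -0.25), with 0 called by edgeR and 4 lower at an unadjusted p under 0.05. Their sum was highest in TAF10KO on the first date code and lowest in TAF10KO on the second. Mesenchymal and stellate markers had a positive difference in 8 of 8 (median 0.55), with 0 called and 0 at an unadjusted p under 0.05. The part of cell makeup in the differences of the cyclins and inhibitors was not tested. In whole liver, fewer cells of a type and less RNA per cell cannot be told apart.

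**Figure D2:**
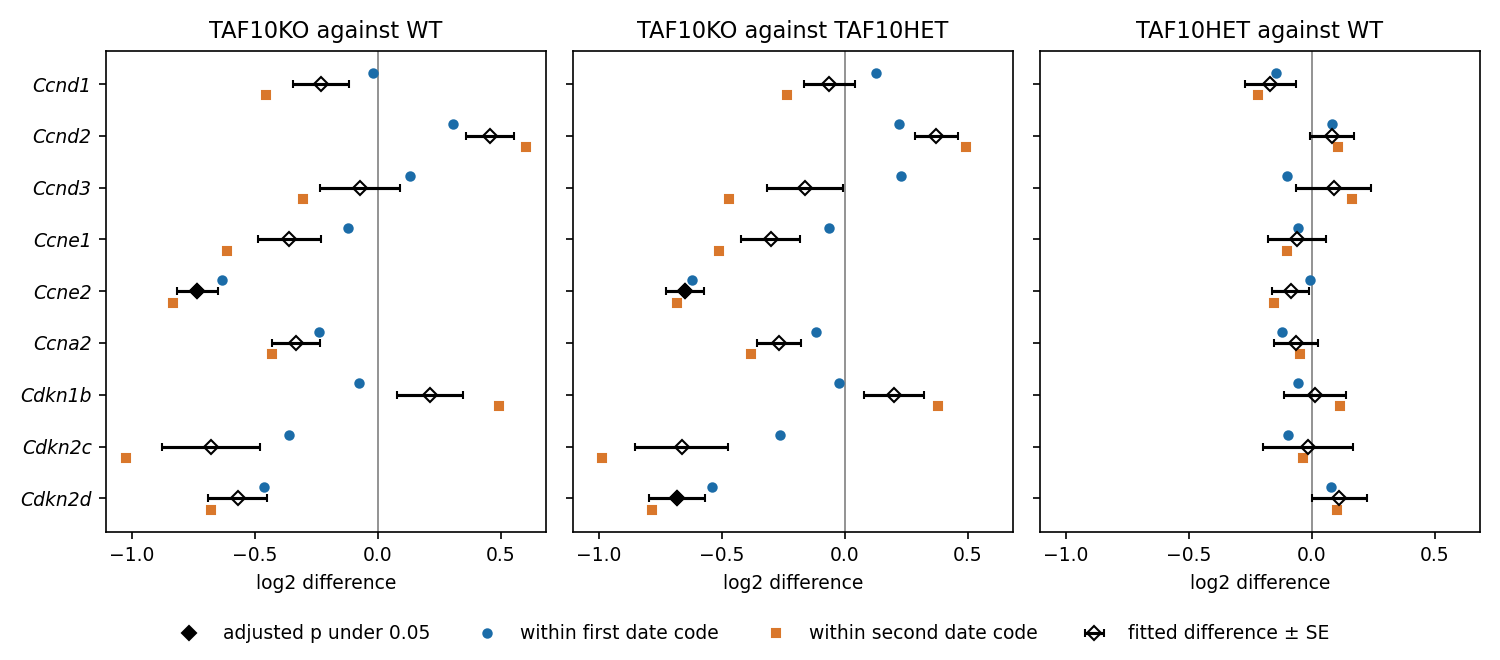
Log2 difference (x axis) of each gene in the 3 comparisons of genotypes, as fitted with group and date code (diamonds with SE, filled where the edgeR adjusted p is under 0.05) and as measured within the first (blue circles) and second (orange squares) date code. Ccne2 is filled in both comparisons of TAF10KO and Cdkn2d in that with TAF10HET, and no gene is filled for TAF10HET against WT.

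Of the D-type cyclins, none passed the test in TAF10KO against WT, and they moved apart from one another. Ccnd2, the D-type cyclin of many blood progenitors, measured 141 and 126 CPM in TAF10KO replicates 1 and 2, 114 and 83 in WT, and 121, 86.9 and 92.1 in TAF10HET. Both TAF10KO libraries were above the other 5. The log2 difference from WT was 0.46 (SE 0.0973, edgeR adjusted p = 0.0893), and was 0.31 on the first code and 0.60 on the second. DESeq2 put it past the threshold (adjusted p = 0.0153), and from TAF10HET the edgeR difference was 0.37 (adjusted p = 0.0953). The endothelial marker sum was also highest in TAF10KO on both date codes, at 472 CPM beside 342 to 366 on the first and 220 beside 179 to 206 on the second. Of 8 endothelial markers, 7 had a positive difference from WT (median 0.43) and 1 rose, Pecam1 (0.64, edgeR adjusted p = 0.0438), while Lyve1 stood at -0.59 (0.202). The part of those cells in the level of Ccnd2 was not tested.

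Ccnd3, the main D-type cyclin of erythroblasts, had 407 and 398 CPM in TAF10KO, 371 and 491 in WT, and 347, 578 and 525 in TAF10HET. On the first date code TAF10KO was the highest of the 3 livers, and on the second it was the lowest of the 4. The fitted difference from WT was -0.07 (SE 0.164, edgeR adjusted p = 0.855), and was 0.13 on the first code and -0.30 on the second. Ccnd1 stood at 119 and 67.2 CPM in TAF10KO, at 120.1 and 92.1 in WT, and at 109, 81 and 77.2 in TAF10HET. Its groups overlapped, and the difference from WT was -0.23 (SE 0.113, adjusted p = 0.333), and was -0.02 on the first code and -0.45 on the second.

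The make-up of the D-type family split the libraries by date code. Per kilobase of exon, Ccnd3 was 52.4% to 53.6% of the summed level of the 3 genes in the libraries of the first code and 62.1% to 71.4% in those of the second. Ccnd1 was 29.1% to 31.9% in the first and 18.6% to 23.2% in the second. These ranges do not overlap for either gene, in any genotype. Ccnd2 was 15.2% to 17.3% in the first code and 10% to 11.4% in WT and TAF10HET of the second, and TAF10KO replicate 2 stood apart from those at 18.3%. The summed level itself was 75.4 to 86.5 CPM per kilobase in the first code and 73 to 92.3 in the second, so the ranges overlapped. Without division by length the mean share over the 7 libraries was 14.8% in place of 24.6% for Ccnd1, 17.1% in place of 14.2% for Ccnd2 and 68.1% in place of 61.2% for Ccnd3.

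**Figure D3:**
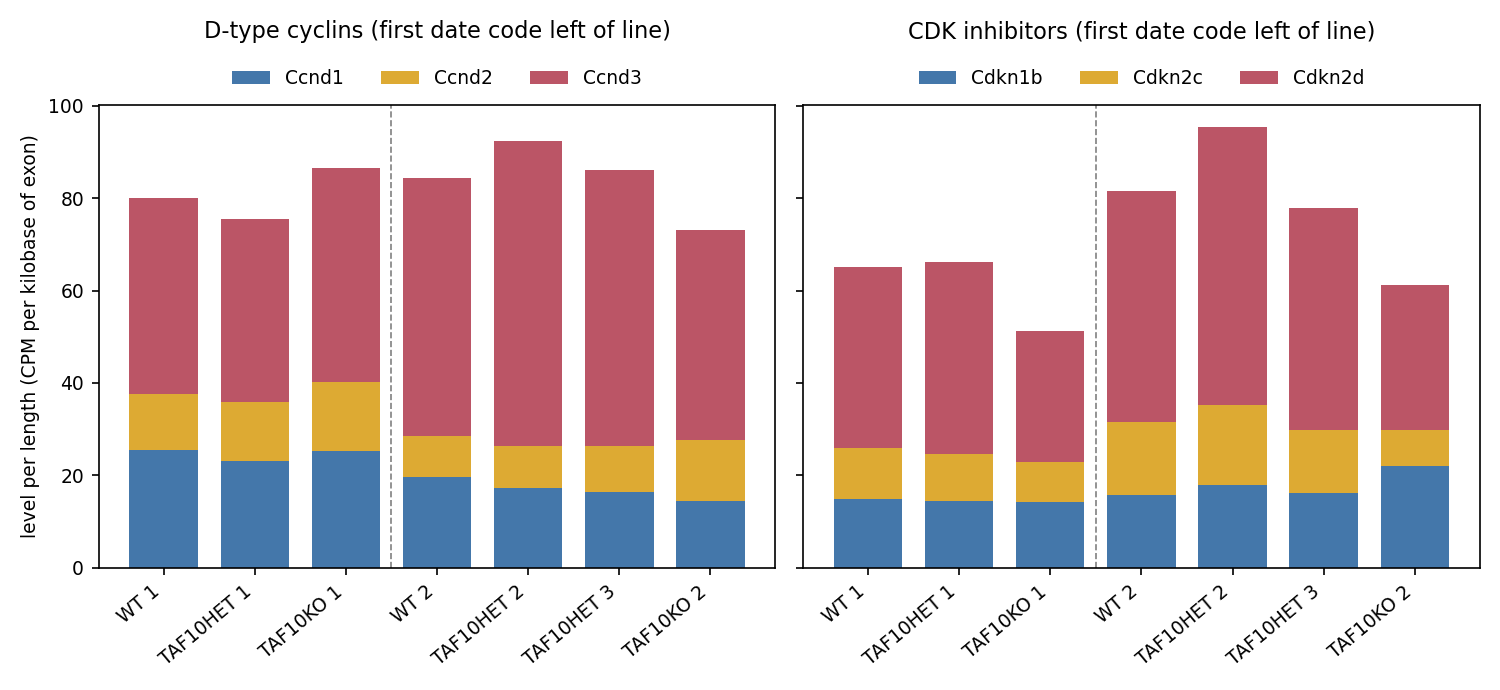
Level per length (y axis, CPM per kilobase of exon, stacked from 0) of the D-type cyclins (left) and of the CDK inhibitors (right) in each library (x axis), with the first date code left of the dashed line. The Ccnd3 part is 52.4% to 53.6% of the bar on the left of the line and 62.1% to 71.4% on its right, and the 2 TAF10KO bars are the lowest of the inhibitor panel.

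Mean levels of both E-type cyclins were lower in TAF10KO, and Ccne2 was the gene that passed the test. Ccne2 had 66.9 and 80.1 CPM in TAF10KO replicates 1 and 2, 104 and 143 in WT, and 103, 126 and 131 in TAF10HET. Both TAF10KO livers were below all 5 others, by date code and across it. Mean levels were 73.5 ± 9.31 CPM in TAF10KO (SD, n = 2), 123 ± 27.6 in WT (n = 2) and 120 ± 14.8 in TAF10HET (n = 3). Ccne2 fell 1.66-fold from WT (log2 -0.73, SE 0.0827, edgeR adjusted p = 0.0204), with -0.63 on the first code and -0.83 on the second. It fell 1.57-fold from TAF10HET (log2 -0.65, SE 0.0774, edgeR adjusted p = 0.0142), with -0.62 and -0.68 on the same codes. TAF10HET carries EpoCre as TAF10KO does. Leaving out either WT library ended the call against WT (-0.83 with adjusted p = 0.219 without replicate 1, -0.65 with 0.543 without replicate 2). So did leaving out TAF10HET replicate 2 (0.0539) or replicate 3 (0.103). Without the date term it was -0.74 with adjusted p = 1 (edgeR) and 0.135 (DESeq2). The call against TAF10HET ended without either of the same WT libraries (0.0688 and 0.077), without either of those TAF10HET libraries (0.0553 and 0.11), with only the groups compared (0.0779) and without the date term (0.709). Ints8, whose exons overlap those of Ccne2 on the other strand, stood at -0.24 from WT (adjusted p = 0.184) and -0.21 from TAF10HET (0.203).

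Ccne1 had 125 and 129 CPM in TAF10KO, 136 and 198 in WT, and 131, 190 and 179 in TAF10HET. Both TAF10KO livers were the lowest of the 7, but on the first date code the gap to the other livers was small. The difference from WT was -0.36 (SE 0.128, edgeR adjusted p = 0.216), and was -0.12 on the first code and -0.61 on the second, and from TAF10HET it was -0.30 (adjusted p = 0.26). Per length, Ccne1 made up 71% and 68% of the E-type level in TAF10KO and 62.4% to 66.4% in the other 5 libraries. The share of Ccne2 was correspondingly lowest in TAF10KO.

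Ccna2, whose product acts through S phase with CDK2, had 342 and 391 CPM in TAF10KO, 404 and 526 in WT, and 372, 517 and 502 in TAF10HET. TAF10KO lay below both WT livers, while it overlapped TAF10HET. The difference from WT was -0.33 (SE 0.0972, edgeR adjusted p = 0.158), and was -0.24 on the first code and -0.43 on the second, and from TAF10HET it was -0.27 (adjusted p = 0.202). DESeq2 put the difference from WT past the threshold (adjusted p = 0.0186). Exosc9, which overlaps Ccna2 on the other strand, stood at -0.25 from WT (adjusted p = 0.211).

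Mean levels of both INK4 inhibitors were lower in TAF10KO, and that of Cdkn1b was not. Cdkn2d had 44.8 and 49.2 CPM in TAF10KO, 61.7 and 78.9 in WT, and 65.1, 94.9 and 75.6 in TAF10HET. Both TAF10KO livers were below the other 5. Mean levels were 47 ± 3.16 CPM in TAF10KO (SD, n = 2), 70.3 ± 12.2 in WT (n = 2) and 78.5 ± 15.1 in TAF10HET (n = 3). Cdkn2d fell 1.6-fold from TAF10HET (log2 -0.68, SE 0.114, edgeR adjusted p = 0.0369), with -0.54 on the first code and -0.78 on the second. In TAF10KO against TAF10HET, 2 of the 9 genes were called (Ccne2 and Cdkn2d, both lower), beside 1.61% of all genes tested, of which 1.15% higher and 0.456% lower. That count was 0 without TAF10HET replicate 2 or 3. Over all genes, 16 were called without TAF10HET replicate 3, in place of 254. From WT the difference of Cdkn2d was -0.57 (SE 0.121, adjusted p = 0.0893), and was -0.46 on the first code and -0.68 on the second, and DESeq2 put it past the threshold (0.00468). Leaving out WT replicate 1 (0.121) or 2 (0.141), TAF10HET replicate 2 (0.081) or 3 (0.119), or TAF10KO replicate 2 (0.0543) ended the call against TAF10HET. It also ended with only the groups compared (0.141) and without the date term (0.696; DESeq2 0.0688).

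Cdkn2c had 23.2 and 20.9 CPM in TAF10KO, 29.7 and 42.5 in WT, and 27.8, 46.5 and 36.9 in TAF10HET. Both TAF10KO livers were again the lowest, with a wider gap on the second date code. The difference from WT was -0.68 (SE 0.199, edgeR adjusted p = 0.162), and was -0.36 on the first code and -1.02 on the second, and from TAF10HET it was -0.66 (adjusted p = 0.144). Cdkn2c and Cdkn2d, which inhibit the partners of the D-type cyclins, thus had differences of like size to that of Ccne2, with a larger SE.

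Cdkn1b had 64.2 and 100.5 CPM in TAF10KO, 67.7 and 71.5 in WT, and 65.2, 81.5 and 73.4 in TAF10HET. TAF10KO replicate 1 was the lowest of the 7 libraries and TAF10KO replicate 2 the highest. The difference from WT was 0.21 (SE 0.134, edgeR adjusted p = 0.439), and was -0.08 on the first code and 0.49 on the second. Without TAF10KO replicate 2 it was -0.06. The summed level of the 3 inhibitors per length was 51.2 and 61.1 CPM per kilobase in TAF10KO and 65.1 to 95.5 in the other libraries. Cdkn1b made up 27.6% and 36.1% of it in TAF10KO and 18.7% to 22.8% in the others.

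Between TAF10HET and WT none of the 9 genes was called by edgeR, and 0.00633% of all genes tested were. None reached an unadjusted p under 0.05, and DESeq2 called 0 as well. Differences ranged from -0.17 for Ccnd1 (SE 0.104) to 0.11 for Cdkn2d (SE 0.112), with a median of -0.01 beside 0.01 over all genes. Leaving out single libraries changed the sign of Ccne1, Ccne2, Ccna2, Cdkn1b and Cdkn2c in this comparison, with values between -0.17 and 0.17. The 3 genotype comparisons share libraries and are not independent.

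Between the date codes the cyclins did not move as one family. Of the 9 genes, 7 were called by edgeR with genotype in the model: Ccne1, Ccne2, Ccna2, Cdkn1b and Cdkn2d rose from the first to the second code, and Ccnd1 and Ccnd2 fell. This is 77.8% of the 9, beside 41.4% of all genes tested, of which 18.7% higher and 22.7% lower. With upper-quartile in place of TMM factors the split over all genes was 1832 higher and 4056 lower in place of 2956 and 3580, and Cdkn1b (adjusted p = 0.131) and Cdkn2d (0.0833) lost their calls. The median difference of the 9 genes was 0.34, beside 0.02 over all genes. Levels of the 2 codes did not overlap for Ccnd1 and Cdkn1b, 2 of the 9 genes, beside 42.4% of all genes (23.6% with the second lower and 18.8% with it higher).

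Ccnd1 fell by 0.55 on the log2 scale (SE 0.0876, edgeR adjusted p = 0.00296), from 109 to 120.1 CPM in the first code to 67.2 to 92.1 in the second. Every library of the first code was above every library of the second. Within genotypes the difference was -0.38 in WT, -0.46 in TAF10HET and -0.82 in TAF10KO. Within TAF10HET and within TAF10KO the sex judged by Xist also differs between the codes, here and for the genes below. Ccnd2 fell by 0.36 (SE 0.0749, adjusted p = 0.0085), with -0.46 in WT, -0.43 in TAF10HET and -0.16 in TAF10KO. Markers of some other liver cells moved the same way: mesenchymal, endothelial, hepatocyte and macrophage (7 of 7 negative, 4 called lower). Neutrophil precursor markers went the other way, with 6 of 6 positive (median 0.58) and 3 called higher. Megakaryocyte markers were positive in 5 of 6, with 2 called higher. Early progenitor markers were split, with 3 positive and 3 negative. The mesenchymal and stellate marker sum went from 1400 to 2545 CPM in the first code to 192 to 345 in the second, with 8 of 8 markers lower. The endothelial sum went from 342 to 472 CPM to 179 to 220, with 8 of 8 lower, and 6 of 8 hepatocyte markers were lower (sums of 17510 to 19810 and 12390 to 16190). The part of those cells in the fall of Ccnd1 and Ccnd2 was not tested.

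The cyclins of the start of S phase went the other way. Ccne1 rose by 0.38 (SE 0.1, edgeR adjusted p = 0.0214), with 0.54 in WT, 0.50 in TAF10HET and 0.05 in TAF10KO. Ccne2 rose by 0.34 (adjusted p = 0.00555), with 0.46, 0.32 and 0.26 in the same order. Ccna2 rose by 0.35 (adjusted p = 0.00959), with 0.38, 0.46 and 0.19. In each of these 3 genes the TAF10KO livers differed least between codes. Of the inhibitors, Cdkn1b rose by 0.32 (adjusted p = 0.0429), with 0.08 in WT, 0.25 in TAF10HET and 0.65 in TAF10KO. Cdkn2d rose by 0.30 (adjusted p = 0.037), with 0.36, 0.38 and 0.14. Ccnd3 (0.38, adjusted p = 0.0516) and Cdkn2c (0.34, 0.122) missed the threshold. For both, WT and TAF10HET were higher in the second code and TAF10KO was not. Bysl, which overlaps Ccnd3 on the other strand, rose (0.45, adjusted p = 0.0173). Erythroid markers moved with these genes, 6 of 10 rising, with sums of 24320 to 37640 CPM in the first code and 34570 to 50860 in the second, and their part was not tested.

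Of the 7 calls between codes, that of Ccnd1 held whichever single library was left out. Without WT replicate 1 or without WT replicate 2 it was the one call left of the 9 genes, and 4 were left without TAF10HET replicate 1 or TAF10HET replicate 2. Ccnd2 then had adjusted p = 0.0668 and 0.0758 (edgeR), Ccne2 0.0632 and 0.0559, Ccna2 0.0825 and 0.0828, Ccne1 0.145 and 0.141, and Cdkn2d 0.182 and 0.169. Ccne1 also missed it without TAF10HET replicate 1 (0.0758), TAF10HET replicate 2 (0.051) or TAF10HET replicate 3 (0.0585), and Cdkn2d without TAF10HET replicate 1 (0.127) or TAF10HET replicate 2 (0.0575). The call of Cdkn1b ended without any 1 of the 7 libraries, with adjusted p from 0.0562 to 0.136. The other way round, Ccnd3 and Cdkn2c passed without TAF10KO replicate 1 (0.000845 and 0.00308) and without TAF10KO replicate 2 (0.000855 and 0.00321).

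**Figure D4:**
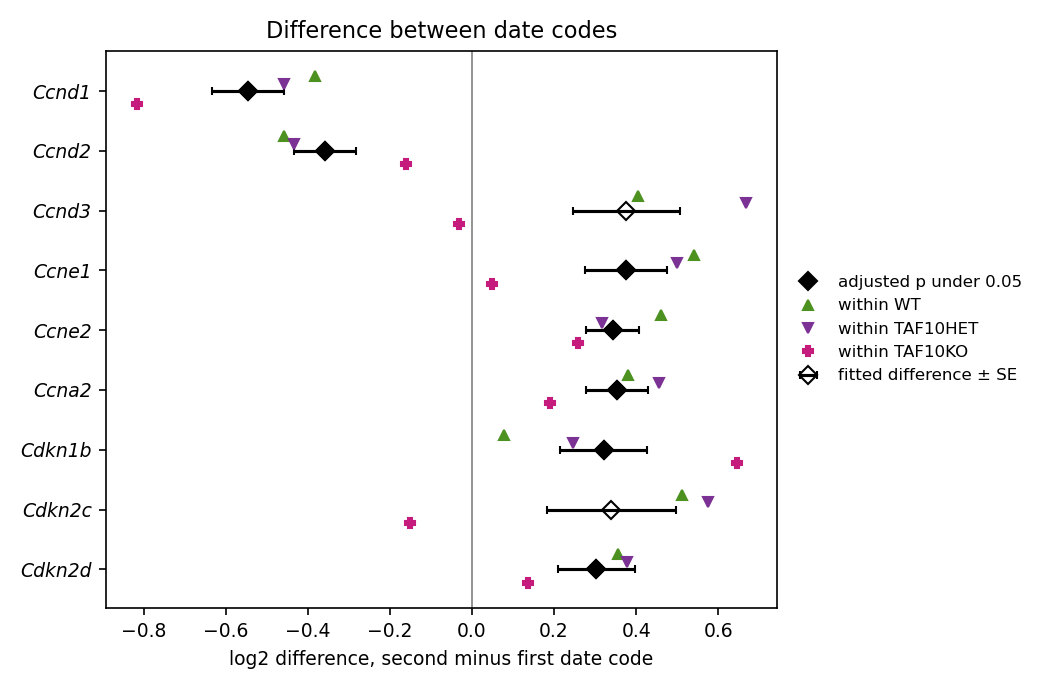
Log2 difference of the second from the first date code (x axis) for each gene, as fitted with group and date code (diamonds with SE, filled where the edgeR adjusted p is under 0.05) and as measured within WT, TAF10HET and TAF10KO (coloured points). Ccnd1 and Ccnd2 are negative in all 3 genotypes, and Ccne1, Ccne2, Ccna2, Cdkn1b and Cdkn2d are positive in all 3.

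The genes around these 9 in the pathway were read from 7 lists with 78 genes, of which 77 passed the filter. In TAF10KO against WT edgeR called 0 of the 77, with 7 higher and 15 lower at an unadjusted p under 0.05. The share of all genes at that unadjusted level is not given here for this fit. Those 2 numbers are thus no result about these lists. DESeq2 with the same terms called 589 genes in all. Of the 77 it called 2 higher, Cdkn1a and Rb1, and 5 lower, among them Tfdp2, Skp2, Pcna and Tyms. Without TAF10HET replicate 1, edgeR called 2 higher and 6 lower of the 77. The count over all genes in that fit is not given here, so these numbers have nothing to be set against. Among the partner kinases and their activators (8 genes, median -0.02), Cdk4, the kinase of the D-type cyclins and the most abundant of the list, stood at -0.09 (adjusted p = 0.588). Of the other CDK inhibitors (4 of 5 tested, median 0.57), the most abundant, Cdkn1c (p57), stood at -0.04 (0.905). The median of that list rested on Cdkn1a (p21), at 1.17 (0.0893), and on the scarce Cdkn2b (p15), at 2.10 (0.15). These were named after their values were seen.

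In the retinoblastoma and E2F list (13 genes, median -0.12) E2f2, the most abundant and an E2F factor of erythroblasts, stood at -0.36 (edgeR adjusted p = 0.273). In the list of ubiquitin ligases and cofactors for cyclins and p27 (10 genes, median -0.13), Rnf123, a ligase for p27, stood at -0.13 (0.789). Genes of S phase entry driven by E2F (18 genes) had a negative difference in 18 of 18, with a median of -0.20. Their median was -0.07 within the first date code and -0.38 within the second, and it was -0.06 without TAF10KO replicate 2. Rrm2, the most abundant and a subunit of ribonucleotide reductase, stood at -0.41 (0.232). Those that DESeq2 called included Tyms, which makes thymidylate, at -0.40 (edgeR 0.0873) and Pcna, the clamp of the replication polymerase, at -0.51 (0.0917). Genes of G2 and mitosis (12 genes, median -0.14) included the phosphatase gene Cdc25b at -0.17 (0.532). Of the transcription factors upstream in erythroid cells (12 genes, median 0.15), Tal1 stood at -0.12 (0.687).

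Between date codes, edgeR called 35 of these 77 genes higher and 3 lower in the second, beside 18.7% higher and 22.7% lower (41.4% in all) over all genes tested, a total share near that of the S phase entry list below. The numbers were 13 and 2 without WT replicate 1 or without WT replicate 2, and 26 and 3 with upper-quartile factors. Upstream factors had 11 of 12 higher and 1 lower, led by Gata1 (0.56, adjusted p = 0.00101), Foxo3 (0.76, 0.00119) and Myc (0.66, 0.00182). The one that fell was Mycn (-0.36). S phase entry genes had 7 of 18 higher and 0 lower, so all their calls lay on the side where 18.7% of all genes were called. The smallest adjusted p were in Rrm2 (0.58, 0.00921), Cdc45 (0.27, 0.0111), which opens replication forks, and Cdt1 (0.55, 0.0177), a licensing factor. In the retinoblastoma and E2F list 6 of 13 were higher, among them Rb1 (0.81, 0.000571), Tfdp2 (0.55, 0.00267) and Rbl2 (0.35, 0.0112). Of the G2 and mitotic genes 6 of 12 were higher, among them Cdc25b (0.58, 0.00491), Ccnb2 (0.31, 0.015) and Aurkb (0.40, 0.0259). Of the ubiquitin list 4 of 10 were higher and 1 lower: Cdc34 rose (0.38, 0.00364), as did Ambra1 (0.40, 0.0103), a cofactor that directs D-type cyclins to destruction, and Skp2, which directs p27 to it, fell (-0.33, 0.00447). Cdc25a rose among the kinases and activators (0.30, 0.0218). Cdkn1c fell among the other inhibitors (-1.41, 0.000259), in the same direction as the mesenchymal markers, whose part in it was not tested.

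**Figure D5:**
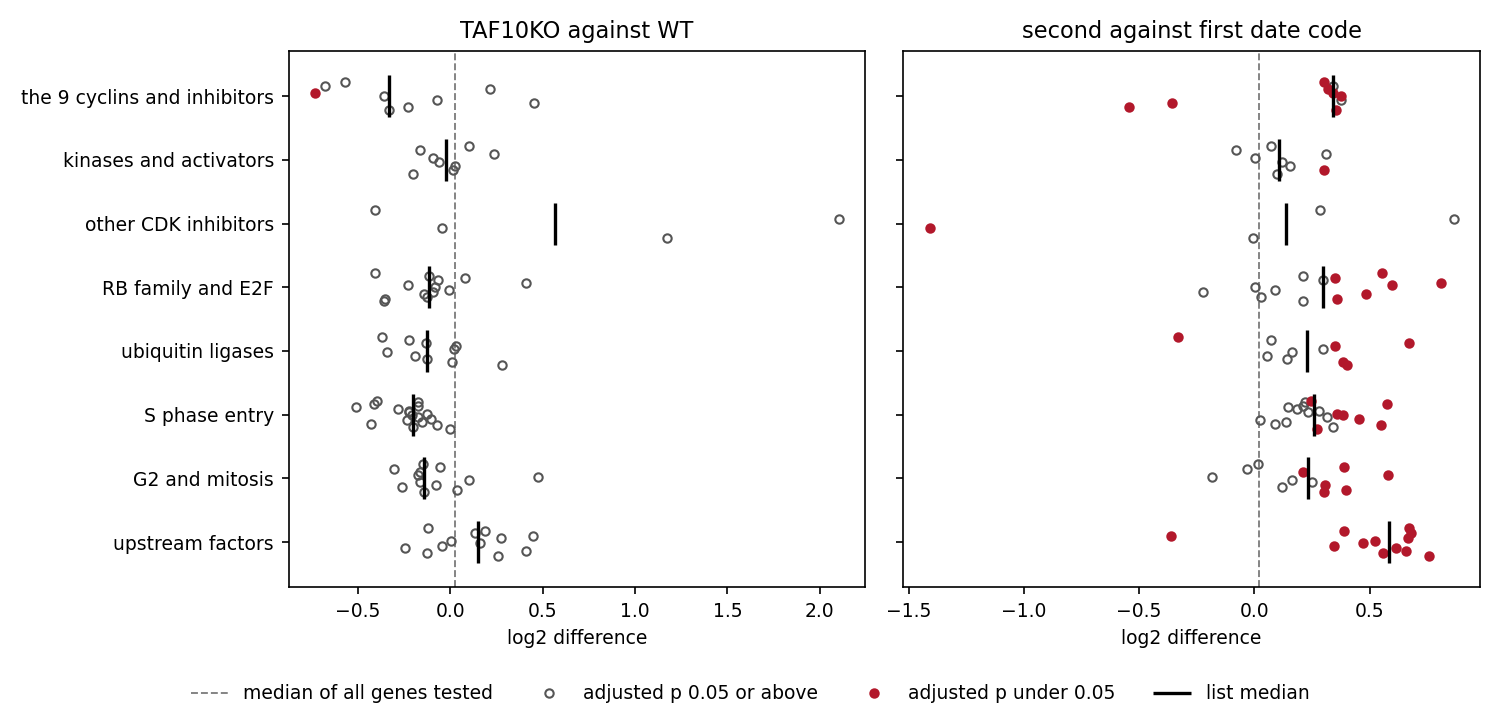
Log2 difference (x axis) of each tested gene in the 9 genes and in the 7 pathway lists (rows), for TAF10KO against WT (left) and for the second against the first date code (right); filled points have an edgeR adjusted p under 0.05, black bars are list medians and the dashed line is the median of all genes tested. On the left Ccne2 is the one filled point, and on the right most filled points lie above 0.

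The genes most like each member over the 7 libraries were ranked by the root mean square difference of centred log2 CPM, among 9643 genes whose mean log2 CPM was 3 or more. Ccne2 was nearest to Apol8 (0.0845) and Car2 (0.0928), a carbonic anhydrase of red cells. Ccne1 was nearest to Dhrs13 (0.0492) and Lrrc56 (0.0497), and Ccna2 to Zfp800 (0.0408) and Metap2 (0.0447), which removes first methionines. Among the D-type cyclins, Ccnd1 was nearest to Alb (0.0489), the albumin of hepatocytes, and to Mertk (0.0582), a receptor of phagocytes. Ccnd2 was nearest to Mbnl2 (0.0433), a splicing factor, and Ift172 (0.0533), and Ccnd3 to Stk11 (0.0338), a kinase, and Shb (0.0381). Cdkn1b was nearest to Clic1 (0.0653) and Syce2 (0.0674), Cdkn2c to Natd1 (0.0896) and Slc2a4 (0.0916), a glucose transporter, and Cdkn2d to Acbd4 (0.0451) and Pqlc1 (0.0665). The 9 genes thus had 18 different nearest genes. With 7 libraries, most of whose variance lay between the date codes, these are descriptions with no test.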

How the data were processed

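RNA sequencing of 7 fetal livers gave 1 file of whole-number counts per Ensembl gene for each; the counts were made by the authors and deposited with no normalisation. The mm10 build, TopHat2 2.0.8 and DESeq2 are named in the submitters' processing notes, and no source used here names the counting program, annotation or strand setting. Symbols from GENCODE M21 matched 37693 of 39017 identifiers; the 1324 others held 0.198% of counts. Summary lines that name no gene were left out: reads in no gene (6.81% to 10.1%), ambiguous reads (3.98% to 5.94%) and multiple alignments (14.1% to 22.3%), as shares of reads.

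Tests used edgeR 4.0.16 in R 4.3.3 (filterByExpr by group, TMM, robust quasi-likelihood F test, two-sided) on group and date code over all 7 libraries, with Benjamini-Hochberg adjustment over 15800 genes at 0.05. DESeq2 1.42.0 was an alternative. The procedure was tested on simulated data. The genes, lists and this design were chosen with earlier results of these data known. Pairing by date code comes from the codes in the titles. Deviations from group means correlated at 0.40 to 0.74 in 8 pairs of libraries with the same code. The 8 pairs with different codes gave -0.74 to -0.40. In WT and in TAF10KO, with 2 libraries each, the deviations are mirror images. The values for different codes therefore repeat those for the same code with the sign turned and add no evidence. No 2 libraries of a group agreed within sampling noise. The biological coefficient of variation was 13.4% with the date term and 33.9% without. Log2 CPM used a prior count of 2. Levels per length used the union of exons. Of each pathway list, the text names up to 3 called genes with the smallest adjusted p, or the most abundant where none was called. For each of the 9 genes it names the 2 most alike. Named beyond this rule, after their values were seen, were Cdkn1a, Cdkn2b, Rb1, Tfdp2, Skp2, Pcna and Tyms in TAF10KO against WT. Mycn was named so between date codes. Embryos with Xist under 10 CPM (2 of 7) were taken as male in 1 alternative. The values of 1 gene of the lists are not reported here.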

Additional observations from a re-analysis of the deposited data

Results flagged for a closer look

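For 4 genes, every library moved one way on one date code or genotype and every library the opposite way on the other. These differences between date codes or genotypes were not tested, and each side rests on 1 to 3 libraries. In TAF10KO against WT, Ccnd3 differed by 0.1318 (log2) on the first code and by -0.3041 on the second, and Cdkn1b by -0.07669 and 0.4914. In TAF10KO against TAF10HET the values were 0.2308 and -0.4697 for Ccnd3, 0.1254 and -0.2336 for Ccnd1, and -0.02199 and 0.3785 for Cdkn1b. In TAF10HET against WT they were -0.09898 and 0.1656 for Ccnd3 and -0.0547 and 0.1129 for Cdkn1b. On the 2 codes TAF10HET also carries different alleles. Judged by Xist, sex changes between the codes too, from female to male in TAF10KO and from male to female in TAF10HET. Both WT livers were female, and the part of sex in these differences was not tested. Between the date codes, Ccnd3 differed by -0.03203 in TAF10KO but by 0.4039 in WT and 0.6685 in TAF10HET. Cdkn2c differed by -0.1509 in TAF10KO but by 0.5127 in WT and 0.5756 in TAF10HET.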

How the results depend on the processing

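Under median-of-ratios factors, upper-quartile factors or the filter of 5 CPM in 2 libraries, the total number of calls, in the 9 genes or over all genes, stayed within 1.5 times its reported value. By direction it did not: lower calls in TAF10KO against WT went from 20 to 35 with median-of-ratios and 36 with upper-quartile factors, and higher calls between date codes from 2956 to 1832 with upper-quartile factors. In TAF10KO against WT, 1 of the 9 genes and 96 genes in all were called as reported. The numbers were 5 and 589 with DESeq2, 5 and 1399 with no filter on low counts, 5 and 2725 with embryo sex as a term, 4 and 553 with only the groups compared and 1 and 53 with non-robust dispersions. In TAF10KO against TAF10HET (2 and 254 as reported) they were 5 and 690, 4 and 1498, 6 and 2743, and 0 and 26 under DESeq2, no filter, sex and only the groups compared. In TAF10HET against WT (0 and 1) the count over all genes was 9, 289, 32 and 7 in the same order and 0 with non-robust dispersions, and that of the 9 genes stayed at 0. The fit with no replicate block for the date code called 0 of the 9 and 0 genes in all in each of these comparisons with edgeR; with DESeq2 it called 0 of the 9 in each, 142 genes in TAF10KO against TAF10HET and 3 in TAF10HET against WT. Without the pairing by date code, then, no genotype call in the 9 genes was left with either tool. Between date codes, 4 of the 9 genes were called with date as the only term, in place of 7. The mean share of Ccnd1 was 14.8% without division by length.

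With single libraries left out, TAF10KO against WT gave 0 to 8 of the 9 genes and 0 to 1282 genes in all, TAF10KO against TAF10HET 0 to 8 and 16 to 1203, TAF10HET against WT 0 to 0 and 0 to 13, and the date codes 1 to 8 and 3206 to 7303. The highest numbers come without a TAF10KO library, where the lone one is assumed to vary like the other groups. Signs turned as follows, with leave-outs given as their range. In TAF10KO against WT, Ccnd3 was 0.08753 with sex as a term and -0.3768 to 0.1718 with single libraries left out, and Cdkn1b was -0.06346 to 0.447; the turned values came without TAF10KO replicate 2. In TAF10KO against TAF10HET, Ccnd1 was 0.06224 with no replicate block (0.0463 with DESeq2) and -0.2408 to 0.1133 with libraries left out, Ccnd3 -0.4289 to 0.12 and Cdkn1b -0.1058 to 0.4043, turned without the same library. In TAF10HET against WT, where the reported values lie near 0, sex as a term gave 0.0145 for Ccne1, -0.05039 for Cdkn1b and 0.1046 for Cdkn2c. No replicate block gave 0.03979 for Cdkn2c (0.04438 with DESeq2, which gave 0.002767 for Ccne1). Leaving out libraries gave ranges of -0.1648 to 0.07422 for Ccne1, -0.1628 to 0.004836 for Ccne2, -0.09362 to 0.0009978 for Ccna2, -0.1716 to 0.1722 for Cdkn1b and -0.1535 to 0.1385 for Cdkn2c. The cause of these shifts was not tested. With 2 or 3 livers a group, differences between TAF10KO and WT of the size of those in Ccna2 or Ccne1 did not pass the test at this number of livers.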
